A study of Mus musculus with 550 samples.

Results

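Apart from a few pseudogenes, the genes described here encode the respiratory chain proteins that are made from nuclear DNA, together with the ATP synthase and the assembly factors that carry the same gene prefixes. Members were chosen by symbol alone: names that start with Nduf, Uqcr, Uqcc or Atp5, names that start with Cox4 to Cox8, and Sdha, Sdhb, Sdhc and Sdhd. Names that contain "-ps" were left out. This gave 100 of the 55228 gene names in the count table. They comprise 41 genes with complex I names, 8 complex I assembly factors, 4 genes of complex II, 8 of complex III, 3 complex III assembly factors, 19 of complex IV and 17 of complex V. GENCODE types Ndufs6b, Ndufb4c, Ndufa11b and Cox6c2 as processed pseudogenes, and they are counted with the complex of their name.

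Complexes I to IV pass electrons from NADH and succinate to oxygen across the inner mitochondrial membrane and, except for complex II, pump protons as they do so. Complex V, the ATP synthase, uses the proton gradient to make ATP. Most subunits are nuclear genes, a few are encoded in mitochondrial DNA, and pluripotent stem cells are known for drawing much of their ATP from glycolysis, with respiration gaining weight as they differentiate.

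Embryoid bodies (EBs) are aggregates in which embryonic stem cells (ESCs) differentiate after the cytokine LIF is withdrawn. They were grown from E14 mouse ESCs of strain 129/Ola that were wild type (WT), Dnmt3a-/- (3AKO) or Dnmt3b-/- (3BKO), lacking either of the enzymes that place new DNA methylation, and were taken at day 3 or day 9. Single cells were sorted into wells and their polyadenylated RNA was read with a Smart-seq2 protocol, in 2 library batches for each genotype and day. The study's methods state that each knockout was grown as more than 1 clone and that EBs were pooled, but the labels do not tie cells to a clone or culture. Genotype and day thus give 6 groups, and each counts as 1 sample: no test was possible, no p-value is given, and every comparison is between single samples. The values of batch 1 and batch 2 are given side by side, but are not counted as biological replicates. Both batches of a group come from the same plate, except for the mutant labels at day 3. There the batches of each label lie on different plates (210 and 211). Values are CPM: the reads of a library's kept cells were added up and scaled to a fixed total of reads outside mitochondrially encoded (mt-) genes. A log2 ratio compares CPM + 1, which understates the difference of low genes. Intervals are exact at 95%. Those of read counts are Poisson intervals of counting error alone, because amplified reads were not tagged by molecule and several may come from the same one. Those of shares of cells are binomial over the cells of a group and leave out any difference between cultures.

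Of 550 cells, 486 were kept, with a median of 263902 reads and 6542 detected genes, and each of the 12 libraries held 21 to 61 kept cells. At day 9 the filter kept 67 of 93 3BKO cells, against 89 of 91 WT cells and 88 of 93 3AKO cells. The part of this uneven loss in the 3BKO values was not tested. The members took 4072875 reads, or 2.93% of reads outside mt- genes. Dnmt3a stood at 27.3 and 27 CPM in the 3AKO libraries at day 9 against 183 and 161 CPM in WT, and Dnmt3b at 16.5 and 18.9 CPM in the 3BKO libraries against 161 and 211 CPM. At day 3 the check went against the labels in batch 2: the library labelled 3AKO held 383 CPM of Dnmt3a and 97.6 CPM of Dnmt3b, and the library labelled 3BKO held 15.6 and 225 CPM, against 322 and 630 CPM in WT. In batch 1 the library labelled 3AKO held 27.5 CPM of Dnmt3a and the library labelled 3BKO 177 CPM of Dnmt3b, against 480 and 633 CPM in WT. Day 3 mutant libraries are therefore named by label and given batch by batch. At day 9 each genotype was a plate of its own, and WT at day 3 and at day 9 were also different plates, so plate and genotype, or plate and day, cannot be told apart. The summed markers of pluripotent epiblast, 8 genes that include Pou5f1 and Nanog, lay between 2442 and 6215 CPM in every library. On plate 210, 3 kept cells of row A stood apart from the rest, and results that rest on them are given with and without them. Heart muscle markers (Myh6, Tnnt2, Actc1 and Nkx2-5) summed to at most 41.3 CPM and those of primitive red cells to at most 6.64 CPM.

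Promoters of respiratory chain genes are known for sites of the factors NRF1, GABPA and YY1. RefSeq promoter windows of 250 bases before to 50 after the start site (GRCm38.p6) were found for 79 members, which have 84 windows in all. The NRF1 motif GCGCANGCG was present, on either strand, in 28.6% of the 84 windows against 8.58% of the windows of all protein-coding genes. The GABPA motif CCGGAAG was in 22.6% against 11.6%, and the YY1 motif AAGATGGC in 14.3% against 3.05%. No motif contains another, but the AAG that ends the GABPA motif also starts the YY1 motif. Stretches of 60 bases are shown for 4 members that were higher in WT at day 9 than at day 3 and are described below, with the NRF1 match in capitals, 5′ to 3′ on the strand of the gene. Uqcc2 lies on the minus strand at chr17:27133906-27133965, Ndufaf4 on the plus strand at chr4:24897944-24898003, Cox6a1 on the minus strand at chr5:115349042-115349101 and Sdhd on the minus strand at chr9:50603895-50603954.
Uqcc2: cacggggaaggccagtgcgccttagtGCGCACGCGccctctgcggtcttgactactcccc
Ndufaf4: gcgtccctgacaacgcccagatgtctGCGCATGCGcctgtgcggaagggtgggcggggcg
Cox6a1: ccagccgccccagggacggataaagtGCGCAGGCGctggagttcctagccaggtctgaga
Sdhd: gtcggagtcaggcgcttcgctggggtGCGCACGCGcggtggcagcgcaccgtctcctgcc
The match ends 39 bases before the start site in Uqcc2, 104 in Ndufaf4, 108 in Cox6a1 and 70 in Sdhd. A match is a description of the letters, with no test attached. The median log2 ratio of day 9 to day 3 in WT was 0.70 over 23 members with the NRF1 motif and 0.68 over 54 without it. It was 0.76 over 19 and 0.58 over 58 for GABPA, and 0.64 over 12 and 0.70 over 65 for YY1.

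Nearly all members were read in most cells. Of the 100, 78 had a read in at least 80% of the 486 kept cells and 9 in under 20%. The 5 seen in under 5% were tissue-restricted forms and gene copies: Ndufb4c (21 cells), Cox8c (16 cells), Ndufa11b (8 cells), Cox6a2 (2 cells) and Cox8b (1 cell). Cox6a2 and Cox8b are forms of complex IV subunits known from heart and skeletal muscle, and Cox8c is known from testis. Per kilobase of the principal transcript, which allows levels to be compared between genes, the highest was Atp5b, the catalytic β subunit of ATP synthase, at 2777 CPM per kb over all kept cells. Cox4i1, a core nuclear subunit of complex IV, followed at 2718 CPM per kb, then Atp5j at 1006, Uqcrb at 946 and Atp5a1, the α subunit of the synthase, at 905 CPM per kb. Cox4i1, Atp5j, Uqcrb and Atp5a1 are among 33 members that share exon bases with another gene (Emc8, Gabpa, Gm10767 and Haus1, on the opposite strand). The sources used here do not say whether reads were counted by strand, so the values of these members are uncertain. To be counted in a comparison, a member had to have a read, within each batch, in 20% or more of the cells in 1 of the compared groups. That left 92 or 93 members at day 9 and between the days, and the others are not in the counts below.

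In WT EBs most members were higher at day 9 than at day 3. Of 92 detected members, 76 (82.6%) were higher at day 9 in both batches, where 41.2% of the 10004 detected genes were, and 5 were lower, where 27% of all genes were. A difference of at least 0.5 on the log2 scale in both batches was seen upwards in 34 members (37%; 16.2% of all genes) and downwards in 1 (9.86% of all genes). The median log2 ratio was 0.60 over the members and 0.12 over all genes. The summed level of the members was 26478 and 24136 CPM in batches 1 and 2 at day 3 and 34412 and 26251 CPM at day 9, log2 ratios of 0.38 and 0.12, so the batches shared the direction and not the size. Kept WT cells had a median of 7267 detected genes at day 3 and 5652 at day 9, and the part of this in the result was not tested. Trophoblast markers summed to 42.8 and 22.5 CPM at day 3 and 72 and 40.7 CPM at day 9 (1 of 5 higher in both batches and 1 lower), and meso-endoderm markers to 48.2 and 24.8 CPM and then 58.4 and 54.8 CPM (2 of 8 higher and 1 lower). Pluripotent epiblast markers summed to 3139 and 2864 CPM and then 3568 and 2910 CPM (3 of 8 higher and 2 lower). Ectoderm markers summed to 238.5 and 297 CPM and then 364 and 248 CPM (1 of 6 higher and 2 lower). The part of these lists was not tested either. Glycolysis genes, by contrast, stood at 33210 and 21286 CPM at day 3 and 25454 and 19921 CPM at day 9.

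**Figure D1:**
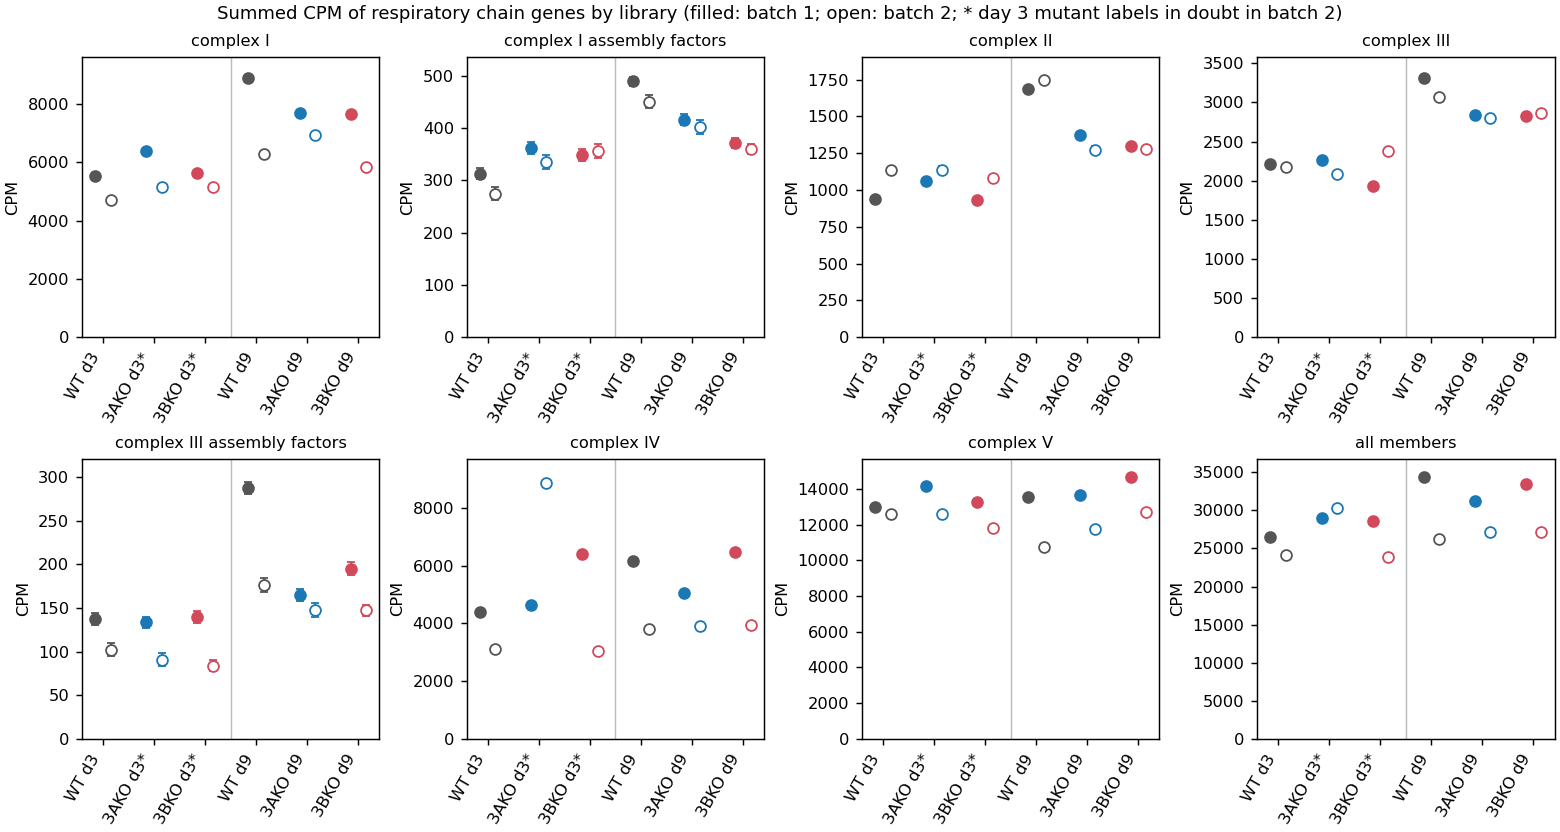
Summed CPM of the members of each complex, and of all 100, in the 12 libraries (filled points batch 1, open points batch 2; error bars are exact Poisson intervals of counting error, mostly smaller than the points). WT at day 9 lies above WT at day 3 within each batch for complexes I to IV and both sets of assembly factors, and complex V does not, at 13579 and 10740 CPM against 12969 and 12617 CPM.

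The day course differed by complex. Complex I, the NADH dehydrogenase, had 34 of 39 detected genes higher in both batches and none lower, and its sum was 5515 and 4719 CPM at day 3 and 8887 and 6275 CPM at day 9. All 4 genes of complex II, succinate dehydrogenase, and all 8 of complex III, the cytochrome bc1 complex, were higher. Of complex IV, cytochrome c oxidase, 11 of 13 were higher, and of complex V 10 of 17, with 3 lower.

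Uqcc2, an assembly factor needed for cytochrome b of complex III, had the highest pooled log2 ratio, 1.50. It stood at 52.5 and 27.9 CPM in WT at day 3 and at 146 and 73.2 CPM at day 9, and the pooled levels, 42.8 CPM (39.8 to 45.9) and 122 CPM (119 to 126), did not overlap in their counting intervals. Both day 9 libraries were above both day 3 libraries. Ndufa12, an accessory subunit of complex I, went from 51.8 and 44.1 CPM to 157 and 73 CPM (log2 ratio 1.40). Ndufaf4, a complex I assembly factor, went from 26.7 and 37.2 CPM to 67.6 and 102 CPM (1.33). Here batch 2 was the higher of the pair on each day, the reverse of Uqcc2.

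Cox6a1, the widely expressed form of a complex IV subunit, stood at 310 and 179 CPM at day 3 and at 741 and 408 CPM at day 9 (log2 ratio 1.29). Ndufa13, a complex I subunit, stood at 158 and 71.2 CPM and then at 355 and 142 CPM (1.21), a value made uncertain by exon bases shared with Tssk6. In each of these genes both batches had the higher level at day 9. In complex II, the membrane anchor Sdhd stood at 131 and 270 CPM and then at 368 and 539 CPM (1.18), and the other anchor Sdhc at 167 and 88.7 CPM and then at 312 and 155 CPM (0.94). The iron-sulphur subunit Sdhb had a log2 ratio of 0.95 and the flavoprotein Sdha, which carries the succinate site, 0.32. The 4 subunits of this small complex were thus higher by unequal amounts.

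The core subunits of complex I described here, which lie in the arm that passes electrons from NADH to ubiquinone, gave mixed values. Ndufs3 (log2 ratio 0.77), Ndufs7 (0.50), Ndufs8 (0.78) and Ndufv2 (0.50) were higher in both batches. Ndufv1 was level in batch 1 and 0.40 higher in batch 2, and Ndufs1 did not differ in a steady direction (0.09 and -0.02).

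The 5 members lower at day 9 in both batches were 3 of the ATP synthase, an assembly factor and a complex IV subunit. Atp5g3 stood at 539 and 926 CPM at day 3 and at 398 and 616 CPM at day 9 (log2 ratio -0.56). It is among the genes for the rotor c subunit, of which Atp5g1 (0.50) and Atp5g2 (0.54; exon bases shared with Mir688) were higher in both batches. Atp5a1 (-0.27) and Atp5b (-0.18), the α and β subunits, were lower by less: Atp5b went from 5679 and 4516 CPM to 5158 and 3509 CPM. The summed level of complex V was 0.07 higher in batch 1 and 0.23 lower in batch 2 on the log2 scale. Ndufaf5, an assembly factor of complex I, went from 67.3 and 41.4 CPM to 36.1 and 24.3 CPM (-0.80), against its 7 fellow factors, which were all higher. Cox8a, the common form of a complex IV subunit, was at -0.02.

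**Figure D2:**
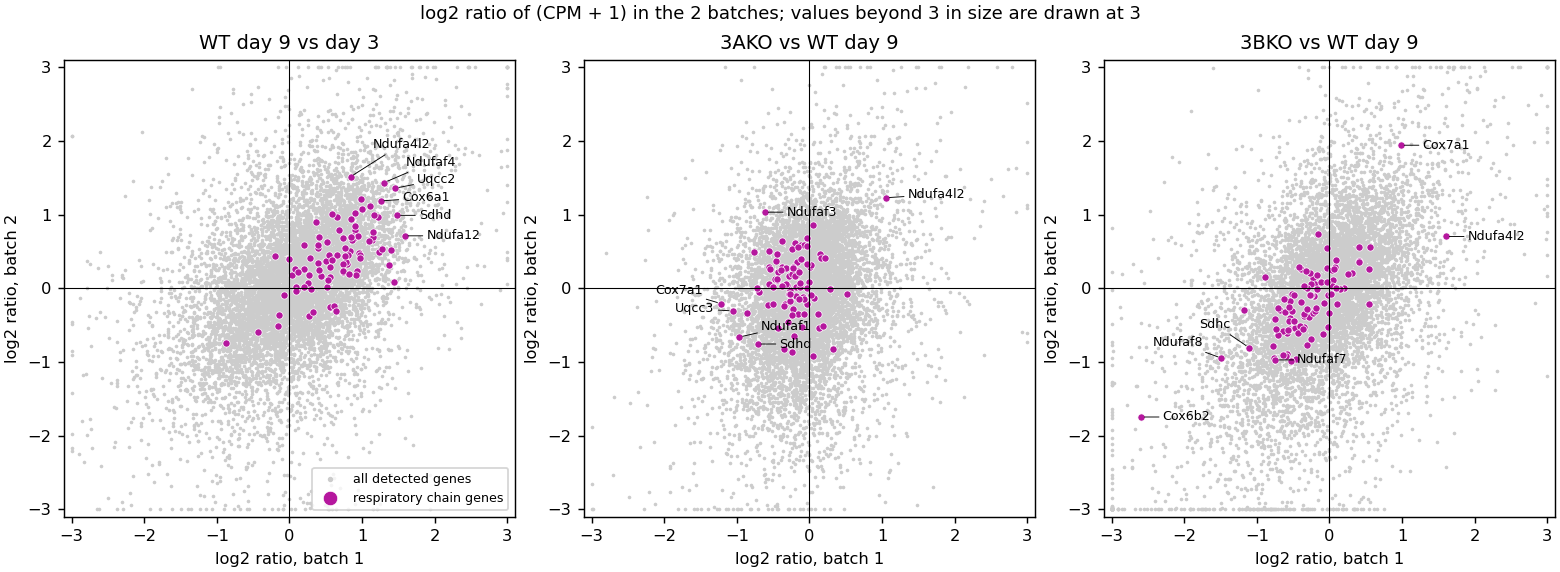
Log2 ratio of each detected gene in batch 1 (horizontal) and batch 2 (vertical) for the 3 comparisons, with all genes in grey and the members in magenta. In WT day 9 against day 3, 76 of 92 members lie at the upper right, and in 3BKO against WT 57 of 93 lie in the lower left, while in 3AKO against WT the members straddle the horizontal axis.

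The tricarboxylic acid cycle, carrier and assembly genes outside the naming rule were higher in the same comparison more often than lower. So were all detected genes, with 41.2% higher and 27% lower in both batches. The share of cycle genes that were lower was near that of all genes. Of 13 cycle genes, 8 were higher and 3 lower in both batches (median log2 ratio 0.38). Of 32 detected carriers and assembly factors, such as cytochrome c and its partners, 23 were higher and 4 lower (median 0.53), led by Tmem70, an ATP synthase assembly factor, at 2.29. Of 11 detected regulators, which include Nrf1 and Gabpa, 2 were higher and 6 lower. Of the 13 subunits encoded in mitochondrial DNA, mt-Nd3, mt-Nd4l, mt-Co2, mt-Co3, mt-Atp6 and mt-Atp8 were at or near 0, with at most 0.124 CPM in a library, so their sum covers the other 7 and mt-Co1 made up 46.4% to 64.4% of it. As a share of all reads this sum was 0.25 higher in batch 1 and 0.10 lower in batch 2, with no common direction.

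In 3AKO cells at day 9 the members were lower than WT about as often as other genes were. Of 92 detected members, 30 were lower than WT in both batches (32.6%), the same share as among all 8953 detected genes (32.7%). Higher in both batches were 7 (7.61%), against 24.7% of all genes. At a difference of at least 0.5 in both batches there were 1 higher (5.13% of all genes) and 2 lower (8.20%). The median log2 ratio was -0.18 over the members, being -0.23 in batch 1 and 0.04 in batch 2, and -0.09 over all genes. The summed level was 31178 and 27215 CPM against 34412 and 26251 CPM in WT, lower in batch 1 and higher in batch 2.

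The clearest differences were in small sets. All 3 complex III assembly factors were lower than WT in both batches: Uqcc3 at 47.2 and 43.3 CPM against 99.2 and 53.8 CPM (log2 ratio -0.87), Uqcc2 at 80.2 and 58 CPM against 146 and 73.2 CPM (-0.77), and Uqcc1 at -0.13. Sdhd stood at 224 and 319 CPM against 368 and 539 CPM (-0.69), lower by a like amount in each batch. Sdhb (-0.31) and Sdha (-0.26) were lower as well, and Sdhc was lower in batch 1 and level in batch 2 (-0.18 and 0.03). Ndufaf1, a complex I assembly factor, stood at 43 and 70.1 CPM against 85.1 and 111 CPM (-0.79).

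Ndufa4l2, a paralogue of Ndufa4 known to be induced by low oxygen through HIF-1, was the highest member in both mutants. It stood at 40.6 and 25.9 CPM in WT, 85.3 and 62.1 CPM in 3AKO and 125 and 42.8 CPM in 3BKO, log2 ratios of 1.07 and 1.19. All 4 mutant libraries were above both WT libraries, and all day 3 libraries lay below them at 3.21 to 22.2 CPM. After each cell was thinned to 50000 reads, the gene had a read in 42.7% of WT cells (interval 32.3 to 53.6), 50% of 3AKO cells (interval 39.2 to 60.9) and 53.7% of 3BKO cells (interval 41.1 to 66), and these intervals overlap. Without thinning they were 44.9%, 61.4% and 62.7%. By batch these were 45% and 44.8% in WT, 59% and 66.7% in 3AKO, and 71.7% and 42.9% in 3BKO. The 3BKO share was thus above that of WT in batch 1 only. The exons of Ndufa4l2 share bases with Shmt2 on the opposite strand, so the value is uncertain. Ndufa4 itself, now placed in complex IV, was at -0.09 in 3AKO and 0.20 in 3BKO.

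Next in 3AKO came Ndufs8 (log2 ratio 0.25), Atp5b (0.24), Ndufaf6 (0.23) and Cox7a2 (0.20). Atp5b stood at 5959 and 4685 CPM against 5158 and 3509 CPM in WT. Glycolysis genes differed more: 15 of 19 were higher and 1 lower than WT in both batches, with a median log2 ratio of 0.65 and summed levels of 38768 and 36548 CPM against 25454 and 19921 CPM. Aldoa stood at 7983 and 7174 CPM against 4735 and 3303 CPM, and Pdk1, the kinase that holds back pyruvate entry into mitochondria, at 251 and 364 CPM against 153 and 262 CPM. Cycle genes were lower in 5 of 13 and higher in 1. Among all detected genes 32.7% were lower and 24.7% higher in both batches.

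In 3BKO cells at day 9 most members were below WT, while their summed level differed in direction between the batches. Of 93 detected members, 57 (61.3%) were lower in both batches, where 37.4% of the 9004 detected genes were, and 15 (16.1%) were higher, where 29.6% of all genes were. With median-ratio size factors in place of CPM the counts were 48 lower and 22 higher, against 33.1% and 34.4% of all genes. A difference of at least 0.5 in both batches was found downwards in 16 members (17.2%), close to the 15.0% of all genes, and upwards in 3 (9.70% of all genes). The median log2 ratio was -0.36 (-0.31 and -0.21 by batch) against -0.06 over all genes (-0.059 and -0.081 by batch). The pooled median of the members lies below that of either batch, and batch 2 gave 51.7% of 3BKO reads and 32.6% of WT reads. Pooled ratios of single members in 3BKO can likewise lie outside the range of their 2 batches. The summed level was 33508 and 27156 CPM against 34412 and 26251 CPM in WT, log2 ratios of -0.04 and 0.05. The sum is weighted by abundant members, and the counts and the median are not.

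**Figure D3:**
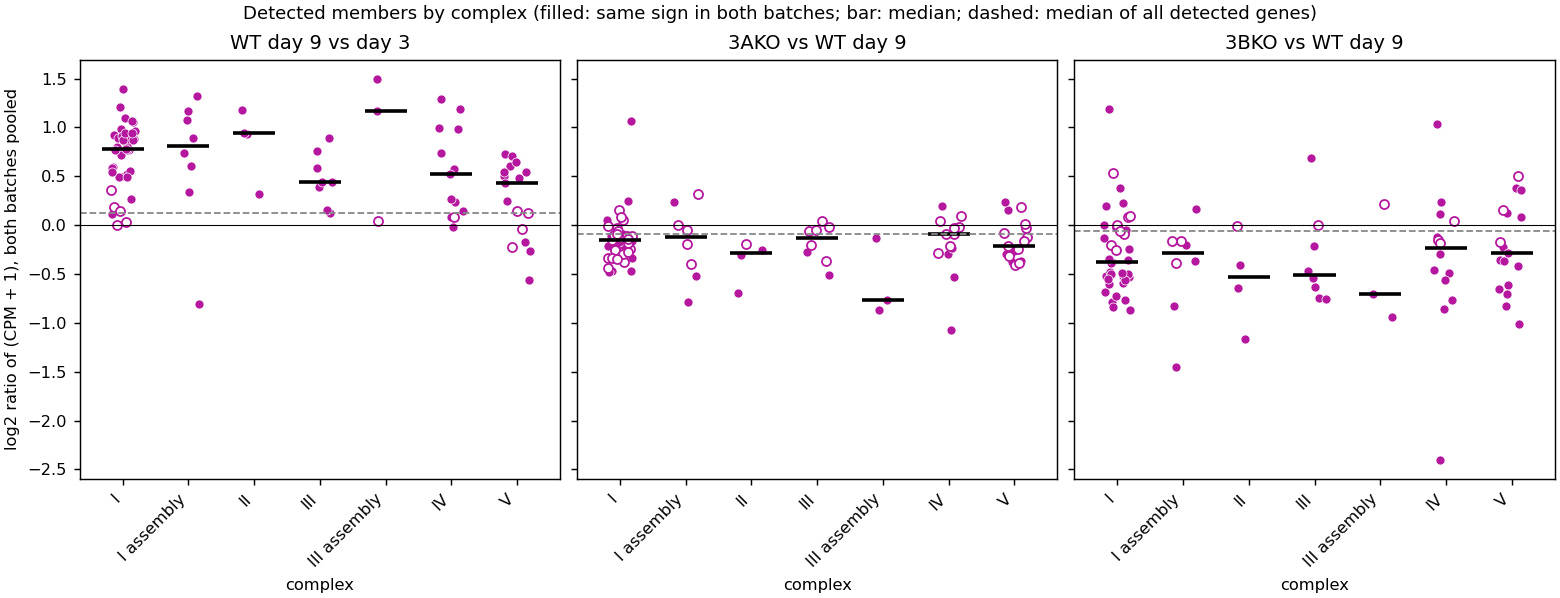
Pooled log2 ratio of every detected member by complex in the 3 comparisons (filled points have the same sign in both batches, bars are medians, the dashed line is the median of all detected genes). For 3BKO the pooled medians of all 7 sets lie below that line, between -0.24 and -0.71, with single members of complexes I, III and IV far above them. Within batches the set medians lay between -0.235 and -0.708 in batch 1 and between -0.091 and -0.578 in batch 2. Over all genes the batch medians were -0.059 and -0.081.

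By complex, 25 of 39 complex I genes were lower in 3BKO and 5 higher. Of complex II 3 of 4 were lower, of complex III 6 of 8, of complex IV 7 of 14 and of complex V 10 of 17. Among these core subunits of complex I, Ndufs7 (log2 ratio -0.61), Ndufs3 (-0.59) and Ndufv1 (-0.55) were lower in both batches. Ndufs8 (-0.35) was lower in batch 1 and all but level with WT in batch 2, and Ndufs1 was nearly level (-0.05). Ndufv2 was lower in batch 1 and higher in batch 2.

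Sdhc showed the largest gap in complex II. It stood at 144 and 88.4 CPM in 3BKO against 312 and 155 CPM in WT and 276 and 158 CPM in 3AKO, a log2 ratio to WT of -1.17, and lies at chr1:171127165-171150603 (GENCODE, GRCm38, minus strand). By batch the ratio of Sdhc to WT was -1.11 and -0.80. The day 3 libraries held 88.7 to 202 CPM of Sdhc. Sdhb stood at 315 and 256 CPM against 472 and 392 CPM (-0.65) and Sdhd at 264 and 369 CPM against 368 and 539 CPM (-0.41), while Sdha differed in sign between batches (0.10 and -0.22). Also among the 5 lowest was the assembly factor Ndufaf8, at 17.4 and 12.5 CPM against 50.7 and 24.9 CPM (log2 ratio -1.45). So were the assembly factor Uqcc3, at 43.1 and 43.9 CPM against 99.2 and 53.8 CPM (-0.94), and the c subunit gene Atp5g2. Atp5g2 stood at 37.2 and 14.6 CPM against 63.5 and 29.1 CPM (-1.01, by batch -0.76 and -0.95). The pooled ratios of Sdhc, Sdhb and Atp5g2 lie further from WT than either batch, and that of Sdhd lies nearer.

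Isoforms of complex IV subunits differed in direction. Cox6b2, known as a testis form of subunit VIb (chr7:4751792-4753094, minus strand), stood at 6.13 and 5.67 CPM in 3BKO against 42.2 and 21.4 CPM in WT and 35 and 18.9 CPM in 3AKO, a log2 ratio to WT of -2.40. Both 3BKO values were below every other library, which ranged from 9.96 to 77.6 CPM. In thinned cells a read was found in 16.4% of 3BKO cells (8.49 to 27.5) against 39.3% of WT cells (29.1 to 50.3), and without thinning in 26.9% and 62.9%. Its common counterpart Cox6b1 was lower in batch 1 and higher in batch 2 (-0.12 and 0.08).

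Cox7a1, known as the heart and skeletal muscle form of subunit VIIa (chr7:30184144-30186078, plus strand), had the opposite pattern in the 2 mutants. It stood at 63.2 and 39.3 CPM in 3BKO, 31.5 and 9.47 CPM in WT and 13 and 8.08 CPM in 3AKO, log2 ratios to WT of 1.03 and -1.08. Both 3BKO libraries exceeded every other library, while in batch 2 the 3AKO value was only 0.21 below WT. The share of thinned cells with a read was 58.2% in 3BKO (45.5 to 70.2), 48.3% in WT (37.6 to 59.2) and 35.2% in 3AKO (25.3 to 46.1), and without thinning 76.1%, 66.3% and 48.9%. By batch the shares without thinning were 82.6% and 61.9% in 3BKO, 68.3% and 62.1% in WT, and 47.5% and 51.9% in 3AKO. In batch 2 the shares of 3BKO and WT were thus level. The 4 heart muscle markers summed to 1.77 and 0 CPM in the 3BKO libraries. Cox7a2, the widely expressed form, went the other way, at 252 and 155 CPM in 3BKO against 336 and 221 CPM in WT (-0.56). So did Cox7a2l, known for joining complexes III and IV into supercomplexes, at 137 and 101 CPM against 228 and 147 CPM (-0.77). Both pooled ratios lie further from WT than either batch.

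**Figure D4:**
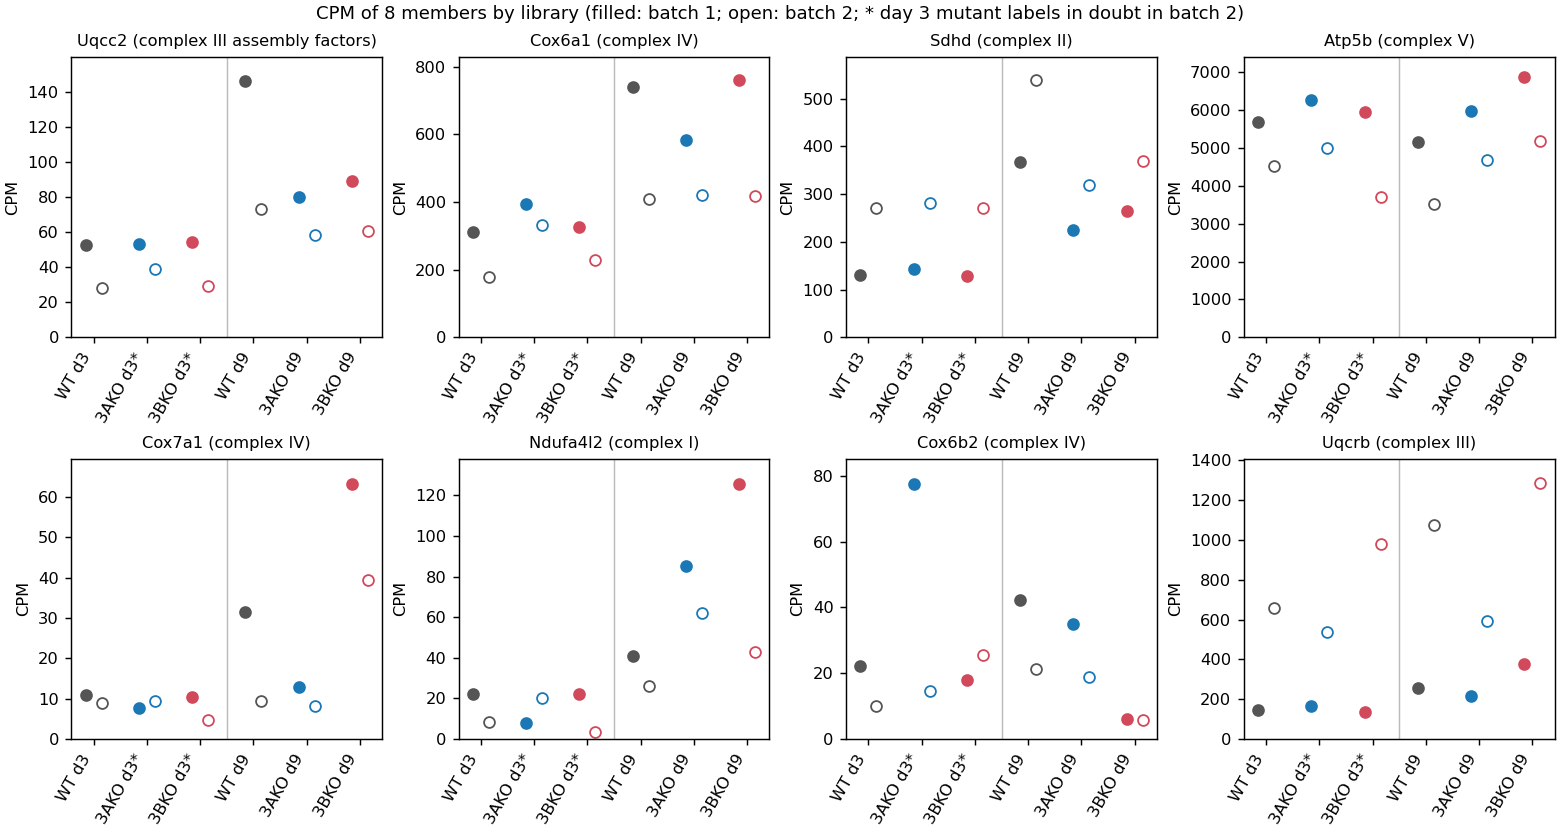
CPM of 8 members in the 12 libraries (filled points batch 1, open points batch 2, no error bars; axes start at 0). Uqcc2, Cox6a1 and Sdhd are higher at day 9 than at day 3 in WT within each batch, Cox7a1 is highest and Cox6b2 lowest in the 3BKO libraries at day 9, and Sdhd and Uqcrb are higher in batch 2 in every group.

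Members above WT in 3BKO included the most abundant ones. Atp5b stood at 6874 and 5175 CPM against 5158 and 3509 CPM (log2 ratio 0.38), the highest value of each batch among the 6 groups. Cox4i1 stood at 3005 and 1574 CPM against 2260 and 1214 CPM (0.24). Uqcrb, a small complex III subunit, stood at 379 and 1284 CPM against 258 and 1074 CPM (0.69), and Ndufb11, a complex I subunit that shares exon bases with Rbm10, at 329 and 162 CPM against 224 and 109 CPM (0.38). For Ndufb11, Atp5b and Cox4i1 the pooled ratio lies at or below that of either batch. For Uqcrb it lies above both, which were 0.55 and 0.26. Batch 2 gave 51.7% of 3BKO reads and 32.6% of WT reads. Without Cox4i1 the summed level of the members was 30503 and 25582 CPM against 32153 and 25037 CPM.

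Cycle and glycolysis genes also differed between 3BKO and WT. Of 13 cycle genes, 10 were lower and 2 higher (median log2 ratio -0.46), with fumarase (Fh1) at 182 and 89.4 CPM against 319 and 235 CPM. Of 20 glycolysis genes, 13 were higher and 4 lower (median 0.32), with Pfkp at 1575 and 974 CPM against 498 and 338 CPM and Slc2a1, the main glucose transporter, at 5446 and 4179 CPM against 1535 and 1768 CPM. Unlike in 3AKO, Pdk1 was lower, at 64.2 and 108 CPM against 153 and 262 CPM. Of 32 carriers and assembly factors 13 were lower and 6 higher, and in 3AKO 14 were lower and 3 higher. Of 11 regulators 5 were higher and 3 lower in 3BKO, and 4 and 3 in 3AKO. Among all detected genes 37.4% were lower and 29.6% higher in both batches in 3BKO, and 32.7% and 24.7% in 3AKO. The share of carriers and assembly factors that were lower in 3BKO was near that of all genes. The mitochondrially encoded sum, over 7 genes with reads, was lower than WT within both batches of 3BKO (-0.13 and -0.07), although the pooled ratio was 0.24 because of the unequal batch shares, and higher in both of 3AKO (0.29 and 0.12). Pluripotent epiblast markers moved with the 3BKO result: they summed to 6215 and 4607 CPM in 3BKO, 3568 and 2910 CPM in WT and 3272 and 2763 CPM in 3AKO. In 3BKO 5 of the 8 were higher than WT in both batches and 3 lower, among them Fgf5, at 4.73 and 0 CPM against 65 and 64.9 CPM. Other marker lists moved too. The 5 trophoblast markers summed to 147 and 105 CPM in 3BKO and 139 and 48.9 CPM in 3AKO against 72 and 40.7 CPM in WT, with 2 of the 5 higher in both batches in each mutant, 1 lower in 3BKO, and Cdx2 at 0 in every library. The 6 ectoderm markers summed to 496 and 372 CPM in 3BKO against 364 and 248 CPM, with 2 higher and 3 lower, and to 250 and 273 CPM in 3AKO. The 8 meso-endoderm markers summed to 17.7 and 50 CPM in 3BKO against 58.4 and 54.8 CPM, with 1 higher and 3 lower, and to 53.1 and 125 CPM in 3AKO. The part of these lists in the members' values was not tested. The 2 mutants share their WT libraries, so their ratios are not independent.

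At day 3 and a log2 cut of 0.5, no mutant library set a larger share of members apart from WT than of all genes. Of 93 detected members, 6 were at least 0.5 above and 1 below WT in the batch 1 library labelled 3AKO, where 17% and 13.1% of all genes were. In the batch 2 library labelled 3AKO these were 19 and 6 of 91 (25.9% and 21.7% of all genes), in the batch 1 library labelled 3BKO 3 and 2 of 92 (14.3% and 11%), and in the batch 2 library labelled 3BKO 13 and 5 of 92 (23.9% and 22.9%). Each of these counts is a smaller share of the members than of all genes. Median log2 ratios over the members were 0.16, 0.12, 0.00 and 0.06, against 0.02, 0.05, 0.02 and -0.01 over all genes. The members' summed log2 ratios to WT were 0.13, 0.33, 0.11 and -0.015, the middle 2 with the row A cells described below. In the batch 1 library labelled 3AKO the members thus lay somewhat above WT, by less than this cut for most. Cox6b2 stood at 77.6 CPM in the batch 1 library labelled 3AKO and 25.6 CPM in the batch 2 library labelled 3BKO, both on plate 211, against 22.1 and 10.0 CPM in WT.

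Cox4i1 at day 3 rested on 3 cells. It stood at 6568 CPM in the batch 2 library labelled 3AKO and 3721 CPM in the batch 1 library labelled 3BKO, against 941 and 1600 CPM in the WT libraries of the same batches. Both libraries lie on plate 210, and the 3 kept cells of row A of that plate held 82.4% and 55.6% of these reads. Each of the 3 had 49260 to 66717 CPM of Cox4i1, where the other 76 kept cells of the plate had 558 to 3139 CPM. They had 2211 to 2779 detected genes against a median of 7088 in the others, and 1.27% to 2.32% of mt- reads. Without them Cox4i1 stood at 1269 and 1727 CPM, complex IV at 3503 and 4425 CPM in place of 8884 and 6398 CPM, and all members at 25088 and 26545 CPM in place of 30277 and 28660 CPM. The counts in the batch 2 library labelled 3AKO became 15 and 5, and in the batch 1 library labelled 3BKO 0 and 2.

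**Figure D5:**
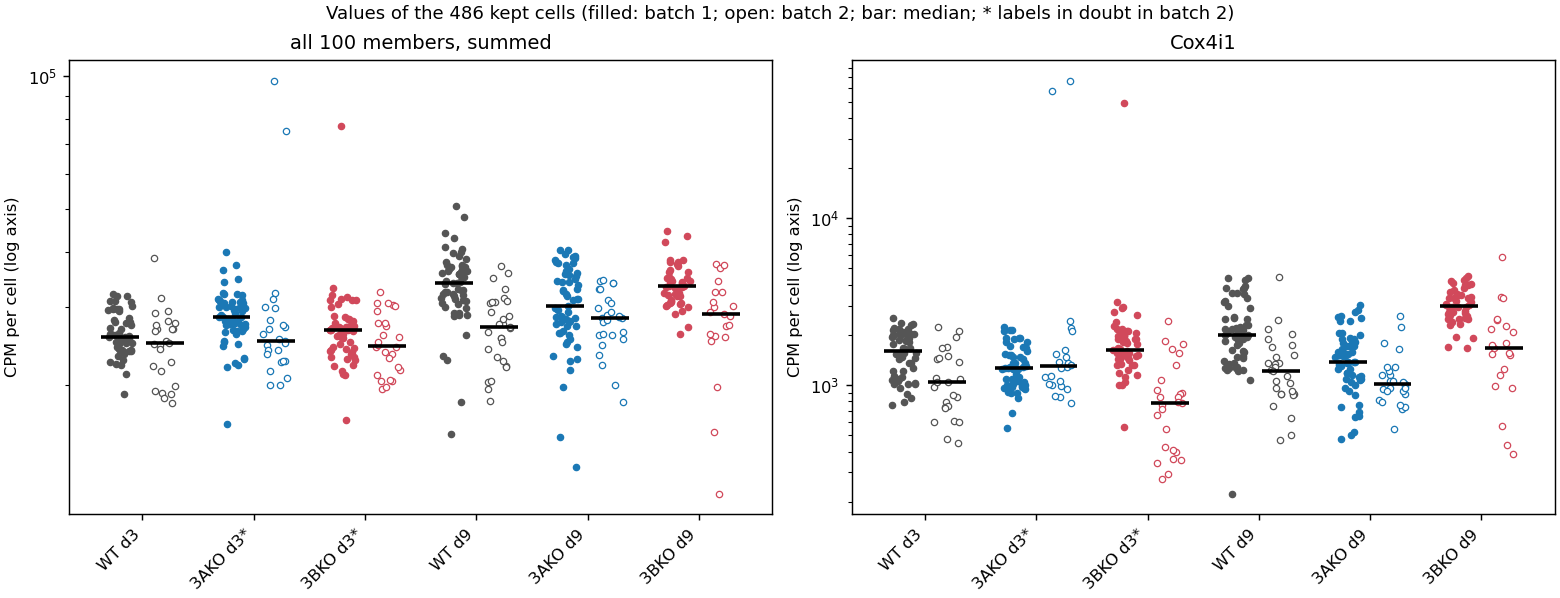
CPM per kept cell of all members summed and of Cox4i1 in the 12 libraries, on log axes (filled points batch 1, open points batch 2, bars medians). The 3 cells far above the rest at day 3 are those of row A of plate 210, with 49260 to 66717 CPM of Cox4i1.

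The summed level of the members was also taken cell by cell. The median over cells was 25718 and 24916 CPM in WT at day 3 and 34042 and 27081 CPM at day 9, and within a library the highest cell was 1.67 to 4.88 times the lowest, or 1.61 to 3.31 times without the 3 row A cells of plate 210. At day 9, 56 of 60 WT cells of batch 1 (93.3%, 83.8 to 98.2) and 20 of 29 of batch 2 (69%, 49.2 to 84.7) lay above the WT day 3 median of their batch. In 3BKO at day 9, 46 of 46 and 18 of 21 did, and in 3AKO 50 of 61 and 22 of 27. The day 3 libraries labelled 3AKO already had 48 of 58 (82.8%) and 13 of 25 cells above it. Those labelled 3BKO had 32 of 54 and 12 of 26. In batch 1 the 3AKO share was thus about the same on both days. Against the WT day 9 median, 45.7% and 66.7% of day 9 3BKO cells and 34.4% and 63% of day 9 3AKO cells were above. Batch 1 and batch 2 thus fell on opposite sides for both mutants.

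Levels of many members also differed by library batch. Of the 100 members, 39 were lower in batch 2 than in batch 1 in 6 of 6 groups and 9 were higher in 6 of 6, and the median over members of the log2 ratio of batch 2 to batch 1 was -0.38. The 9 were Ndufa1, Ndufaf1, Ndufaf4, Ndufb4, Sdhd, Uqcrb, Atp5f1, Atp5j and Atp5l. On the CPM + 1 scale Uqcrb was 2.71 to 7.16 times higher in batch 2 and Atp5l, a membrane subunit of the synthase, 1.68 to 16.9 times. The share of mt- reads also moved with batch, from 3.51% to 6.27% in batch 1 and from 10.8% to 17.9% in batch 2. The part of batch in any pooled value was not tested, and directions above are given as they stood within each batch.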

How the data were processed

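The authors deposited 1 table of read counts per gene name and cell, with no normalization: reads were trimmed (Trim Galore 0.5.0), aligned to GRCm38 (STAR 2.7.1a) and counted over exons (featureCounts 1.6.1), without reads that map to several places. The 26 columns that belong to no sample (empty and mini-bulk wells) were not used. Cells with at least 50000 reads, 2000 genes and at most 50% mt- reads were kept, and 1 cell was sorted per well, so no doublet caller was run. Counts were summed per group and batch (Python 3.11.15, pandas 2.3.3). Members, lists and named genes were chosen with earlier results of these data known. The genes named were the 5 highest and 5 lowest of each comparison with 1 sign in both batches, complex II, the c subunit genes, complex IV isoforms, Ndufa4 and Ndufa4l2, core complex I (1 gene is not reported here), the 5 highest per kb and those in under 5% of cells. Other members and list genes given as examples were chosen after their values were seen. TMM factors (edgeR 4.0.16) and size factors (DESeq2 1.42.0) served only as alternative scalings. The computation was tested on simulated data. Of 36 carriers and assembly factors 35 had a row. All 100 members were found in GENCODE vM21.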

Additional observations from a re-analysis of the deposited data

Results flagged for a closer look

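For 8 of 92 members (8.70%) the 3BKO and 3AKO cells of day 9 stood on opposite sides of WT in both batches, a smaller share than the 13.6% (1165 of 8582) of all genes detected in both comparisons. The difference between the mutants was not tested, plate and genotype cannot be told apart, and both use the same WT libraries. On the log2 scale 3BKO was above 3AKO by 2.11 for Cox7a1, 1.20 for Uqcrb, 0.77 for Cox4i1, 0.72 for Atp5j and 0.29 for Ndufa4. For Cox7a2 (-0.76), Ndufs3 (-0.65) and Ndufs8 (-0.60) 3BKO was below 3AKO. Ndufs8 lay within 0.001 of WT in batch 2 of 3BKO and Ndufs3 within 0.01 of WT in batch 1 of 3AKO, so those signs carry little. Cox4i1, Atp5j, Uqcrb and Ndufs3 share exon bases with another gene, and Uqcrb and Atp5j were higher in batch 2 in 6 of 6 groups.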

How the results depend on the processing

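No paired analysis was possible because each group is 1 sample, cell numbers only name cells and no test was run. Of the recomputed sums and counts, 14 moved and 93 did not. The summed log2 ratio of 3BKO to WT at day 9 (-0.07) had no steady sign: it was 0.017 as a mean of single-cell CPM, 0.019 with thinned cells and with median-ratio factors, -0.003 with TMM factors, 0.049 in batch 2 alone and 0.005 as the mean of the batch ratios, an alternative added after seeing the data. That of 3AKO (-0.10) was 0.052 in batch 2 alone, and that of WT day 9 to day 3 (0.31) was 0.121 there. At day 3, without the 3 row A cells of plate 210 (also added later), the sums of the libraries labelled 3AKO in batch 2 and 3BKO in batch 1 stood 0.056 and 0.004 above WT, in place of 0.33 and 0.11. The 7 members higher in 3AKO became 11 with thinned cells and 11 with median-ratio factors, and the 5 lower at day 9 in WT became 9 with TMM and 8 with median-ratio factors. These factors moved the median of all genes in WT day 9 against day 3 by -0.134 and -0.129, while members stood 0.48 above that median before and after.

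Among named members, 9 values changed sign. Cox6a1 in 3BKO (-0.12) was 0.143 as a mean of single-cell CPM, 0.179 with thinned cells, 0.036 and 0.035 in batches 1 and 2 alone and 0.035 as their mean. This gene was lower in batch 2 in 6 of 6 groups. Its pooled value lies below both batches because batch 2 gave 51.7% of 3BKO reads and 32.6% of WT reads. Ndufs1 in 3BKO (-0.05) was 0.016 with TMM factors, 0.038 with median-ratio factors and 0.049 without the cell with the most member reads. In WT day 9 against day 3, Cox8a (-0.02) was 0.048 with mt- genes in the denominator. The cause of the other sign changes was not tested.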
